A study of Mus musculus with 12 samples.

Results

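The transcripts described here are those of 10 genes that govern the G1 phase of the cell cycle: 5 inhibitors of cyclin-dependent kinases (Cdkn1a, Cdkn1b, Cdkn2a, Cdkn2c and Cdkn2d), 3 G1 cyclins (Ccnd2, Ccnd3 and Ccne1) and 2 kinases (Cdk4 and Cdk6). They were matched by symbol to the array annotation, and each had 1 row in the deposited table, so the 10 genes are 10 of the 22180 genes tested. Total RNA of sorted mouse CD4+ T cells was hybridised to Affymetrix Mouse Gene 2.0 ST arrays, 12 in all, 2 for each of 6 groups. All cells came from spleens of Foxp3.eGFP reporter mice on a C57BL6 background, 8 weeks old, in which green fluorescence marks Foxp3, the transcription factor that defines regulatory T cells. Foxp3+ cells are called Treg and Foxp3- cells Teff. The Control Treg and Control Teff groups were untreated. The a-CD3-CD28 Treg and a-CD3-CD28 Teff groups came from CD4+ cells held for 3 days with antibodies to CD3 and CD28, which engage the T cell receptor and its costimulator, at 2 µg/ml each. The OX40L-JAG1 Treg and OX40L-JAG1 Teff groups came from CD4+ cells held for 3 days with the soluble ligands OX40L, of a costimulatory TNF receptor, at 5 µg/ml and JAG1, of Notch, at 1 µg/ml. The series set expansion through the T cell receptor against expansion without it. In each comparison with control, 3 days of culture and the agents change together and cannot be told apart. Treg and Teff cells shared a culture until the sort, so the response of a cell type is that of cells in a mixed population. Nothing in the labels says whether the 2 samples of a group came from separate mice or cultures, so every p-value below reflects the spread of the deposited samples alone, and that spread may be technical.

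A resting T cell is quiescent, and receptor signals lead it into G1 and on to division by raising D-type cyclins, which bind and activate CDK4 or CDK6. Active CDK4 and CDK6, followed by CDK2 with cyclin E, phosphorylate the retinoblastoma family of pocket proteins and so release E2F factors, which switch on the genes of DNA replication. The inhibitors fall into 2 families. The INK4 proteins (from Cdkn2a, Cdkn2c and Cdkn2d) bind CDK4 and CDK6 alone, whereas the CIP/KIP proteins p21 (Cdkn1a) and p27 (Cdkn1b) act on CDK2 complexes and also help D cyclins assemble with their kinases. Much of this control works on protein stability and phosphorylation, which an array does not measure.

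Promoter sequences were taken from RefSeq (GRCm38.p6), as windows of 300 bases around annotated transcription start sites. Of the 10 genes, 9 were in the table, with 13 windows, and Ccnd2 was not. Shown are stretches upstream of Cdkn1a and Cdk4, an inhibitor and a kinase that the results turn on, and of Ccne1 and Cdkn2c, which rose in both cell types after a-CD3-CD28. Each is written 5′ to 3′ along the gene's strand. In the first Cdkn1a window, at chr17:29090859-29090978 on the + strand, capitals mark a pair of CATG cores 6 bases apart, the form of a p53 binding site. This motif was chosen after the sequence had been seen. The second Cdkn1a window, at chr17:29093649-29093768 on the + strand, starts from a site 2790 bases downstream, and its capitals mark GC boxes. In the Cdk4 window, at chr10:127063355-127063534 on the + strand, capitals mark E-boxes, the letters bound by MYC and related factors. In the windows of Ccne1, at chr7:38107491-38107610 on the - strand, and of Cdkn2c, at chr4:109666757-109666876 on the - strand, capitals mark GC boxes, the letters bound by SP1.
Cdkn1a window 1: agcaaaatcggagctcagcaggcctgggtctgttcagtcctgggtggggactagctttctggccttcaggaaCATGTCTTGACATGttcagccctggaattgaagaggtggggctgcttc
Cdkn1a window 2: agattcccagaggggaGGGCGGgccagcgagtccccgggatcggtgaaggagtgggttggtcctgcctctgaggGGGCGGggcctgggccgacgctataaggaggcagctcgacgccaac
Cdk4: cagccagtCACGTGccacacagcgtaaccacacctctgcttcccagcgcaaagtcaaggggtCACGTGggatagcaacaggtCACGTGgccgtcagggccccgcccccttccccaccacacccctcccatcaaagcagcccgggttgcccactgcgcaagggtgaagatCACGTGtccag
Ccne1: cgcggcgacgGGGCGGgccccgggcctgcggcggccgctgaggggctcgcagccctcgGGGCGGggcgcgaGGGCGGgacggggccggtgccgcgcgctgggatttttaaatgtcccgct
Cdkn2c: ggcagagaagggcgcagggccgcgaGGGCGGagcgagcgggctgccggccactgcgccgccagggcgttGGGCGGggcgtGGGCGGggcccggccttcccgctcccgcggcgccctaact

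The Cdk4 stretch holds 4 E-boxes (CACGTG), whose first bases lie 172, 118, 98 and 11 bases before the start site. Of all 32851 windows in the table, 7.15% had at least 1 E-box and 8 windows, or 0.0244%, had 4 or more. The cut of 4 is the count found in Cdk4, whose window is among the 8, so this share is no test. Among the 10 genes, Cdk6 and Cdkn2c also had an E-box. A GC box (GGGCGG) was found in 10 of the 13 windows, in every matched gene but Cdk6, against 35.7% of all windows. The p53 core pair was found in Cdkn1a alone among them and in 0.712% of all windows. A forkhead motif (TGTTTAC, 3.65% of all windows) was found in Ccnd3. The letters TATAAA (13.6%) were found in Cdk6, with the first base at -103 from the start site. The E2F letters TTTCGCGC or TTTGGCGC (0.813%) and the STAT letters TTCNNNGAA (8.3%) were found in no window of these genes. Both strands were searched, 0 matches of different motifs overlapped in these windows, and a match describes letters only, not a bound site.

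Both arrays of OX40L-JAG1 Teff cells differed in kind from the rest. The SD of their log2 values over genes was 1.491 to 1.71, against 1.947 to 2.188 on the other 10 arrays, and their replicates correlated with r = 0.8806 over genes, against 0.9838 to 0.9939 in the other 5 groups. The summed linear intensity of 7 T cell markers was 3939 to 6625 on them, 8830 to 8996 in a-CD3-CD28 Teff, 16060 to 17120 in Control Teff and 11710 to 13770 in the 3 Treg groups. The sum of 10 neutrophil markers was 4156 to 8622 on them, 1504 to 1838 in OX40L-JAG1 Treg cells and 214.8 to 449.8 in the other groups. The sum of 12 myeloid and dendritic cell markers was 1255 to 3205 in OX40L-JAG1 Teff, 1259 to 1424 in OX40L-JAG1 Treg and 321.5 to 446.9 elsewhere. The sum of 7 basophil and mast cell markers was 1389 to 3051, 676.7 to 827 and 99.82 to 238.2 in the same order, and 9 B cell markers summed to 1250 to 1263 in Control Teff and 221.2 to 552.9 in the other groups. The sum of 4 erythroid and platelet markers was 114.9 to 127.7 in the control groups, 223.9 to 233 in a-CD3-CD28 Treg, 434.1 to 444.1 in a-CD3-CD28 Teff, 458.9 to 579.7 in OX40L-JAG1 Treg and 298.2 to 982 in OX40L-JAG1 Teff. Array values have no true 0. On the OX40L-JAG1 Teff arrays, every neutrophil and basophil marker had a mean above 4.87, the lowest of the array medians. The medians of these 2 arrays were higher, at 5.12 and 5.17. Of the basophil markers, Cd200r3 (mean 5.01) was under both and Fcer1a (5.14) under 1 of them. All 7 T cell markers were above 4.87 in every group. Foxp3, which the sort used, had a mean log2 intensity of 10.37 in Control Treg and 5.66 in Control Teff, of 11.12 and 5.65 after a-CD3-CD28, and of 10.78 and 6.58 after OX40L-JAG1. Levels are log2 intensities summarised by RMA, and groups were compared with limma over all 12 arrays. A gene is called, and is said to have risen or fallen, where its p-value adjusted over all genes was under 0.05. The group spreads of all arrays feed the error of each test, so results that do not need the OX40L-JAG1 Teff arrays are given with and without them. In RNA from many cells, a change in the share of cells that express a gene cannot be told apart from a change in RNA per cell.

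Cdkn1a, which encodes p21, had the widest range of the 10 genes. Its log2 intensity was 4.61 and 4.99 on the Control Teff arrays (replicates 1 and B), 5.25 and 5.09 in Control Treg, 8.32 and 8.30 in a-CD3-CD28 Teff, and 8.95 and 8.76 in a-CD3-CD28 Treg. It was 6.14 and 5.70 in OX40L-JAG1 Teff and 6.45 and 6.09 in OX40L-JAG1 Treg. All a-CD3-CD28 arrays were above all OX40L-JAG1 arrays, which were above all control arrays, and the only neighbouring groups whose arrays overlapped were the 2 OX40L-JAG1 groups. The Control Teff mean of 4.80 lay under the lowest array median, a level at which arrays understate a fold. Cdkn1b, which encodes p27, had the narrower range of the 2 CIP/KIP genes. Its group means were 9.14 in Control Teff, 9.12 in Control Treg, 8.97 in a-CD3-CD28 Teff and 9.54 in a-CD3-CD28 Treg. It was 9.68 and 9.64 on the OX40L-JAG1 Treg arrays, the highest, and 8.99 and 8.21 on the OX40L-JAG1 Teff arrays, the lowest. The arrays of the 4 lowest groups overlapped from each group to the next.

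The INK4 genes showed different patterns. Cdkn2a, whose locus encodes p16INK4a and the p53 regulator ARF, which this array row does not separate, was 6.78 and 6.41 in a-CD3-CD28 Teff, 5.38 and 5.47 in a-CD3-CD28 Treg, 5.08 and 4.70 in Control Teff and 4.89 and 5.19 in Control Treg. It was 5.95 and 5.82 in OX40L-JAG1 Teff and 5.38 and 5.23 in OX40L-JAG1 Treg. Both cultured Teff groups were thus above every Treg array, and the 2 control groups overlapped. Cdkn2c, which encodes p18INK4c, was 5.31 and 5.44 in Control Teff, 6.02 and 5.50 in Control Treg, 6.68 and 6.75 in a-CD3-CD28 Teff and 7.50 and 7.48 in a-CD3-CD28 Treg. It was 6.83 and 6.82 in OX40L-JAG1 Treg but 5.44 and 5.16 in OX40L-JAG1 Teff, which overlapped Control Teff. Cdkn2d, which encodes p19INK4d, had means from 7.43 in OX40L-JAG1 Teff to 8.81 in a-CD3-CD28 Treg. Its OX40L-JAG1 Teff replicates, at 7.97 and 6.89, differed by more than all other groups' means did from one another.

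Among the cyclins, Ccnd2 had its lowest values in OX40L-JAG1 Teff. Its values were 10.58 and 10.48 in Control Teff, 10.19 and 10.15 in Control Treg, 9.82 and 9.86 in a-CD3-CD28 Teff and 10.87 and 10.86 in a-CD3-CD28 Treg. They were 9.96 and 10.34 in OX40L-JAG1 Treg and 8.66 and 7.51 in OX40L-JAG1 Teff. The a-CD3-CD28 Treg arrays were the highest, and Control Treg and OX40L-JAG1 Treg overlapped. Ccnd3, the other D cyclin among the 10 genes, was 8.44 and 8.51 in Control Teff, 7.91 and 7.83 in Control Treg, 8.21 and 8.37 in a-CD3-CD28 Teff and 9.63 and 9.23 in a-CD3-CD28 Treg. It was 7.32 and 7.47 in OX40L-JAG1 Teff and 7.81 and 7.88 in OX40L-JAG1 Treg, and only the latter overlapped a neighbour, Control Treg. Ccne1, which encodes the CDK2 partner cyclin E1, was 6.97 and 7.37 in a-CD3-CD28 Teff and 7.23 and 7.35 in a-CD3-CD28 Treg, against 5.86 and 5.99 in Control Teff and 5.35 and 5.83 in Control Treg. It was 6.05 and 5.49 in OX40L-JAG1 Treg, overlapping both control groups, and 4.61 and 4.82 in OX40L-JAG1 Teff, under the lowest array median.

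The kinase genes differed from each other in their order of groups. Cdk4 was 8.96 and 8.92 in Control Teff, 8.56 and 8.37 in Control Treg, 8.27 and 8.28 in a-CD3-CD28 Teff and 9.41 and 9.34 in a-CD3-CD28 Treg. It was 8.94 and 8.68 in OX40L-JAG1 Treg and 7.66 and 6.88 in OX40L-JAG1 Teff. The a-CD3-CD28 Treg arrays were the highest for Cdk4, and Control Teff and OX40L-JAG1 Treg overlapped. Cdk6 was instead highest in a-CD3-CD28 Teff, at 9.20 and 9.43, followed by a-CD3-CD28 Treg at 8.87 and 9.01. It was 8.47 and 8.42 in Control Teff, 7.67 and 7.62 in Control Treg, 8.22 and 8.42 in OX40L-JAG1 Treg and 6.50 and 6.04 in OX40L-JAG1 Teff. No 2 groups that were neighbours in this order overlapped.

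**Figure D1:**
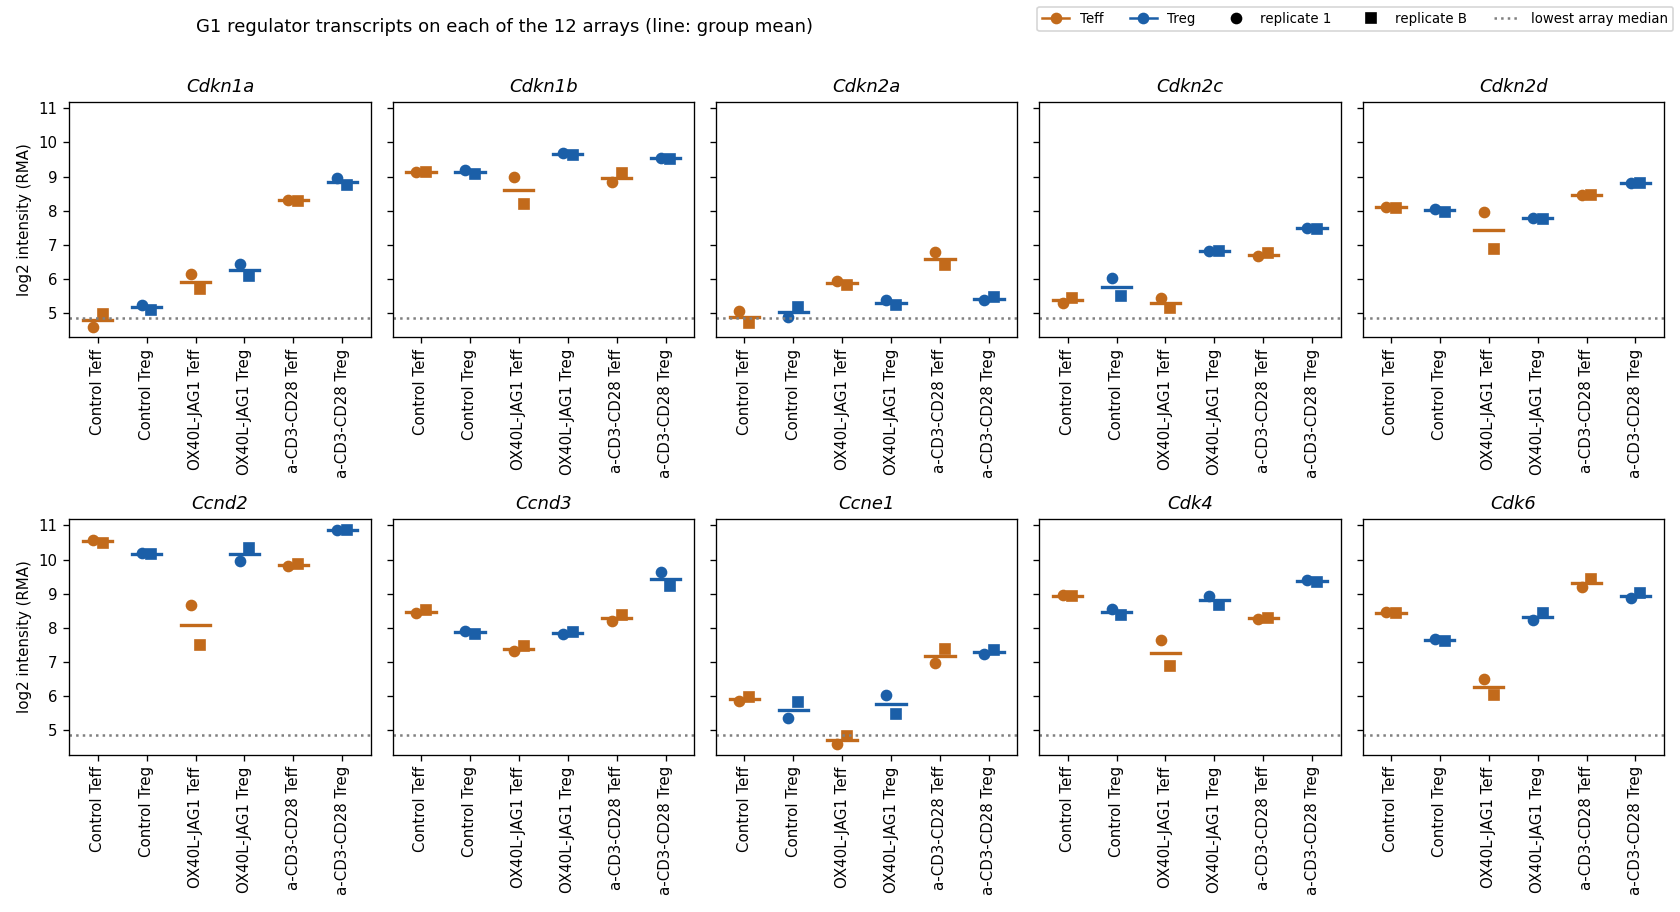
Log2 intensity (RMA) of the 10 genes on each of the 12 arrays, by group, with circles for replicate 1, squares for replicate B, a line at each group mean and a dotted line at the lowest array median of 4.87. Cdkn1a rises from 4.80 in Control Teff to 8.85 in a-CD3-CD28 Treg, and the OX40L-JAG1 Teff arrays are the lowest for Ccnd2, Ccnd3, Ccne1, Cdk4 and Cdk6.

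In Treg cells after a-CD3-CD28, genes for both kinases, 2 cyclins and 2 inhibitors rose. Cdkn1a rose 12.8-fold (log2 difference 3.68, SE 0.22, adjusted p 4.58e-06), Cdkn2c 3.30-fold (1.72, SE 0.21) and Ccne1 3.25-fold (1.70, SE 0.25). Ccnd3 rose 2.94-fold (1.56, SE 0.19), Cdk6 2.46-fold (1.30, SE 0.20) and Cdk4 1.88-fold (0.91, SE 0.24, adjusted p 0.0358). In all, 6 of the 10 genes rose and 0 fell, where 8.08% of all genes rose and 1.97% fell, and the median difference of the 10 genes was 1.10 against -0.05 over all genes. The 4 genes not called differed by 0.79 for Cdkn2d, 0.69 for Ccnd2, 0.42 for Cdkn1b (95% interval -0.11 to 0.94) and 0.38 for Cdkn2a. Without the OX40L-JAG1 Teff arrays, 8 of 10 rose, Cdkn2d and Ccnd2 included, and 0 fell, against 14.8% and 6.75% of all genes. Values were also rescaled, by quantile normalization, which gives every array the same distribution, and by removal of the level trend, the loess curve of each array against the mean level. The call of Cdk4 was lost in most fits that left out 1 array, over which its difference ranged from 0.81 to 1.00. It was also lost under quantile normalization (0.57, adjusted p 0.0864) and with the level trend removed (0.59, adjusted p 0.0503). With these scalings, 65.8% and 65.1% of all genes called in this comparison were higher, against 80.4% in the values as deposited.

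Genes on either side of the G1 kinases moved in the same Treg comparison. Of 15 S phase and mitosis genes, 13 rose and 0 fell (median 1.44), among them the topoisomerase gene Top2a (2.56), the cyclin A gene Ccna2 (2.37), the proliferation marker Mki67 (2.30) and the origin licensing gene Cdc6 (2.17). Of 13 genes for pocket proteins and E2F factors, 7 rose and 0 fell (median 0.90), with E2f8 at 2.73, E2f3 at 1.81, the pocket protein gene Rbl1 at 1.29 and E2f7 at 1.25. E2f7 and E2f8 are known as repressors among the E2F factors. Of 6 other G1 cyclin, CDK and activator genes, Cdk2 (1.64) and the phosphatase gene Cdc25a (1.33) rose and 0 fell (median 0.09). Skp2, part of the ligase that targets p27, rose by 1.47, the only 1 of 7 turnover genes called. Of 2 other inhibitor genes, 0 were called, and Cdkn1c differed by -0.14. Of 11 upstream regulators, 2 rose, Stat5b (0.94) and Stat5a (0.91), which carry the IL-2 signal, and 2 fell, the quiescence factor gene Klf2 (-1.54) and Klf6 (-1.32), with a median of 0.02. Of 17 p53 target genes, 3 rose, Sesn2 (1.36), Perp (1.01) and Zmat3 (0.81), and Btg2, an antiproliferative gene, fell (-1.62), with a median of 0.04. Cdkn1a itself is a known p53 target, and its difference of 3.68 was above that of all 17 listed genes. Foxp3 rose by 0.75 (adjusted p 0.0405). Of the markers, 5 of 6 Treg genes, 1 of 7 T cell genes and 1 of 4 erythroid and platelet genes, Ppbp (2.37), also rose. So did 2 of 10 neutrophil genes, whose sum was 337.8 to 378.4 against 214.8 to 233.8 in Control Treg, and 1 of 9 B cell genes fell. The part of these markers in these differences was not tested.

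In Teff cells after a-CD3-CD28, 5 of the 10 genes rose and 0 fell, where 5.44% of all genes rose and 9.75% fell. Cdkn1a rose 11.4-fold (3.51, SE 0.22, adjusted p 4.51e-06) and Cdkn2a 3.27-fold (1.71, SE 0.21, adjusted p 0.000349). Cdkn2c rose 2.53-fold (1.34, SE 0.21), Ccne1 2.36-fold (1.24, SE 0.25) and Cdk6 1.82-fold (0.87, SE 0.20, adjusted p 0.0139). Neither D cyclin among the 10 genes rose: Ccnd3 differed by -0.18 (95% interval -0.60 to 0.24) and Ccnd2 by -0.69 (adjusted p 0.166). Cdk4 differed by -0.66 (adjusted p 0.0973), Cdkn1b by -0.17 and Cdkn2d by 0.37. The median of the 10 genes was 0.62 against 0.07 over all genes. Without the OX40L-JAG1 Teff arrays, Ccnd2 (adjusted p 0.00595) and Cdk4 (adjusted p 0.00629) were also lower, against 16.5% of all genes, and 5 were again higher, against 12.5%. The count of 5 became 3 without Control Teff replicate 1 or without a-CD3-CD28 Teff replicate B. Of all genes called here, 35.8% were higher as deposited and 50.7% with the level trend removed.

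The surrounding lists in Teff cells were mixed. Of the 15 S phase and mitosis genes, 7 rose and 0 fell (median 0.90), with the mitotic kinase gene Cdk1 at 2.58, Top2a at 2.52, the ribonucleotide reductase gene Rrm2 at 1.83 and Ccna2 at 1.73, and Mki67 rose by 1.60. Of the 13 pocket protein and E2F genes, 2 rose, including Tfdp1 (0.98) and E2f7 (0.91), and 3 fell, including E2f5 (-1.02) and the retinoblastoma gene Rb1 (-0.91), with a median of 0.10. The INK4 gene Cdkn2b, which lies beside Cdkn2a in the genome, rose by 1.22, 1 of the 2 other inhibitors, and of the 6 other G1 cyclin, CDK and activator genes 0 were called, with Cdc25a at -0.54. In the turnover list, Cks1b, a cofactor of SKP2, rose by 1.44 and Ambra1, an adaptor for the degradation of D cyclins, fell by 1.17 (median -0.20). Of 11 upstream regulators, 0 rose and 5 fell (median -0.63), among them Foxo1 (-2.46), which keeps T cells quiescent, Klf2 (-1.29), Klf6 (-0.84) and Myc (-0.79). Of 17 p53 targets, 2 rose, Plk2 (1.20) and Pmaip1 (1.13), and 3 fell, including Rrm2b (-0.92) and Btg2 (-0.90), with a median of 0.15. Foxp3 differed by -0.01. The sum of 6 Treg markers was 4955 to 5257 in a-CD3-CD28 Teff and 619.2 to 632.6 in Control Teff, against 18460 to 19190 in a-CD3-CD28 Treg, and 4 of the 6 rose. Of the 7 T cell markers 0 rose and 3 fell (median -0.55), and 6 fell without the OX40L-JAG1 Teff arrays. Of 4 erythroid and platelet markers 3 rose, among them the platelet chemokine genes Ppbp (3.54) and Pf4 (2.78), and of 9 B cell markers 5 fell. Of 10 neutrophil markers 1 rose and 2 fell, of 12 myeloid and dendritic cell markers 1 fell, and of 7 CD8 T and NK cell markers 1 rose. The part of these markers in the differences above was not tested.

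**Figure D2:**
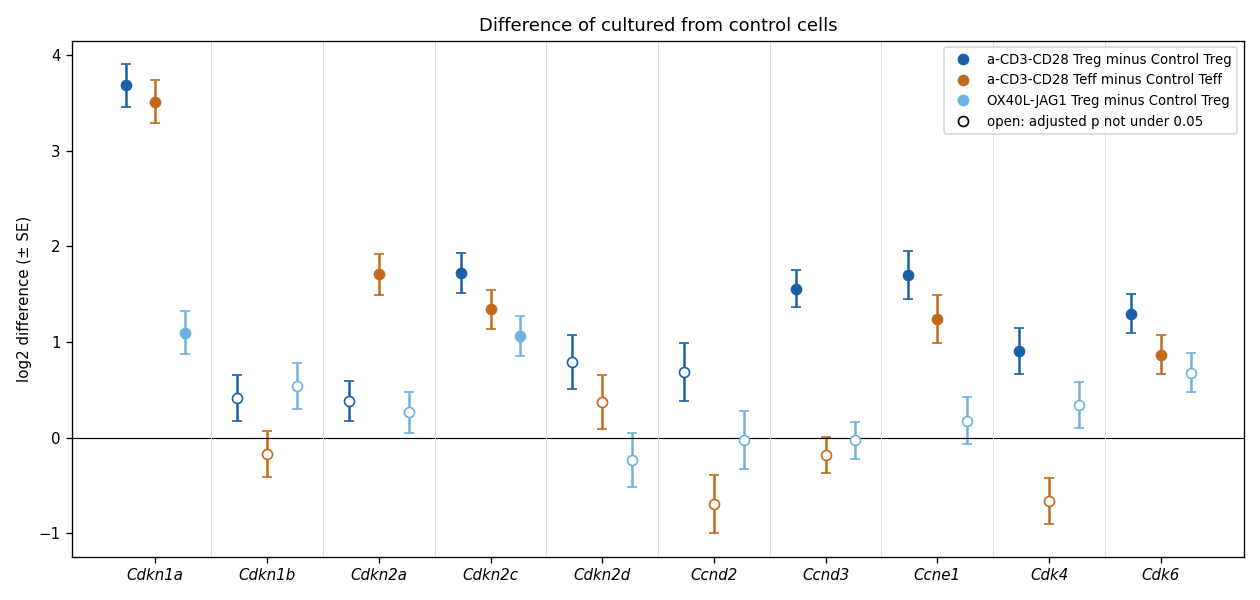
Log2 difference from the matching control group for the 10 genes in a-CD3-CD28 Treg, a-CD3-CD28 Teff and OX40L-JAG1 Treg cells, with bars of 1 SE from limma and filled points where the adjusted p was under 0.05. Cdkn1a stands at 3.68 and 3.51 after a-CD3-CD28, and Ccnd3 at 1.56 in Treg and -0.18 in Teff cells.

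**Figure D3:**
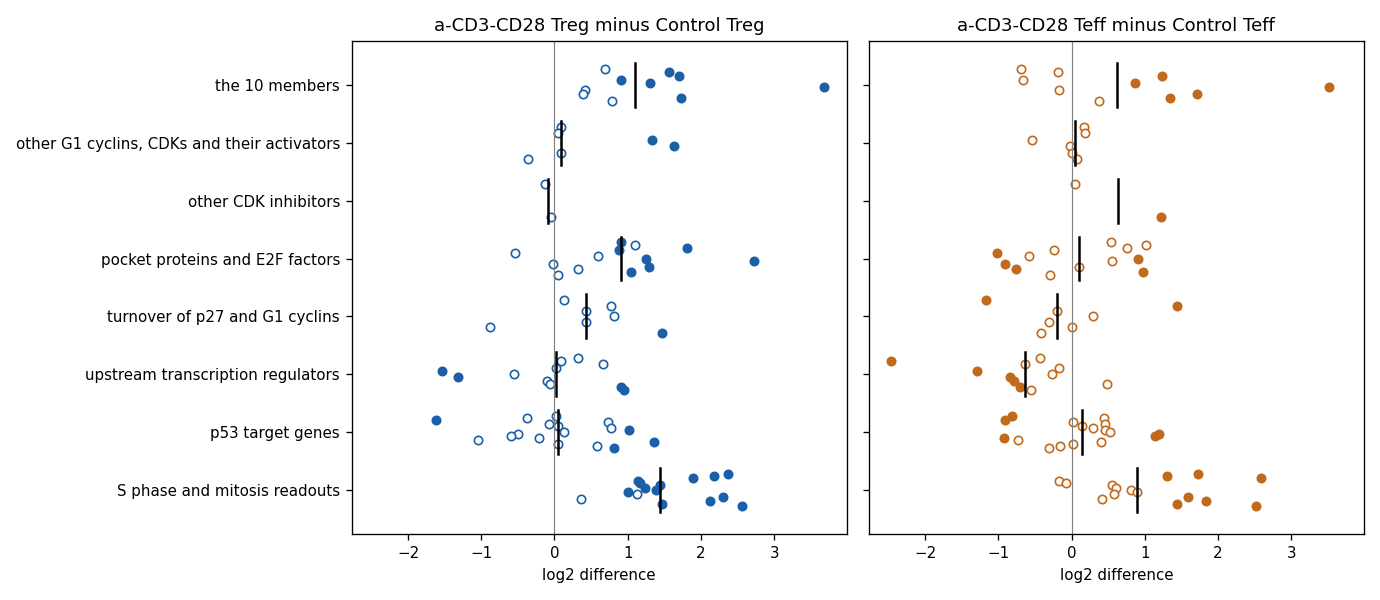
Log2 difference after a-CD3-CD28 of each gene of the 10 genes and of 7 gene lists, in Treg cells (left) and Teff cells (right), with filled points where the adjusted p was under 0.05 and a black line at each list's median. The S phase and mitosis genes have medians of 1.44 and 0.90, and the upstream regulators 0.02 and -0.63.

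The response to a-CD3-CD28 was then compared between the cell types by the interaction term, the Treg response minus the Teff response. It was above 0 for Ccnd3 (1.74, SE 0.27, adjusted p 0.00284) and Cdk4 (1.57, SE 0.34, adjusted p 0.0141) and below 0 for Cdkn2a (-1.32, SE 0.30, adjusted p 0.0169). These were 2 genes higher and 1 lower of 10, where 10.1% of all genes were higher and 2.94% lower. Dim genes are those whose mean was under the lowest array median in every group, and none of the 10 is dim. With dim genes left out, 3 of the 10 were higher and 1 lower. In that fit 24.3% of genes were called, 80.3% of those higher. Ccnd2 had a difference of 1.38 (adjusted p 0.0572), which was called without the OX40L-JAG1 Teff arrays (adjusted p 0.001). That fit called 3 higher and 1 lower, against 20.0% and 11.0% of all genes. For Cdkn1a the responses differed by 0.17 (95% interval -0.53 to 0.86), for Cdkn2c by 0.38, for Ccne1 by 0.46 and for Cdk6 by 0.43. The interaction of Cdkn2a was called under quantile normalization (-1.37, adjusted p 0.03) and with the level trend removed (-1.33, adjusted p 0.0152), as was that of Cdk4 (1.05, adjusted p 0.0391, and 0.94, adjusted p 0.0371), whereas that of Ccnd3 was not (1.21, adjusted p 0.121, and 1.11, adjusted p 0.0882). The 3 calls became 1 without Control Teff replicate B, Control Treg replicate B, a-CD3-CD28 Teff replicate 1, or a-CD3-CD28 Treg replicate 1 or B, and 2 without Control Teff replicate 1. Of all genes with this interaction called, 77.5% were higher as deposited, 56.9% under quantile normalization and 52.6% without the level trend.

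Among the lists, the interaction was above 0 for Cdc25a (1.87) and Cdk2 (1.66) of 6 other G1 cyclin, CDK and activator genes, and below 0 for Cdkn2b (-1.27) of 2 other inhibitors. It was above 0 for 4 of 13 pocket protein and E2F genes (E2f8 2.18, Rbl1 1.19, E2f6 1.17, Rbl2 1.08), for Skp2 (1.88) and Ambra1 (1.30) of 7 turnover genes, and for 4 of 11 upstream regulators (Foxo1 2.55, Stat5a 1.61, Stat5b 1.49, Foxo3 1.30). None of those lists had a gene called below 0 other than Cdkn2b. Of 17 p53 targets, Zmat3 (1.12) was above 0 and Pmaip1 (-1.72) and Plk2 (-1.69) below. Of 15 S phase and mitosis genes, only Mcm2 (1.25), a subunit of the replicative helicase, and the licensing factor gene Cdt1 (1.30) were called, both above 0. Mki67 differed by 0.70 (adjusted p 0.436) and Foxp3 by 0.77 (adjusted p 0.109). The interaction was also above 0 for 5 of 7 T cell markers and below 0 for 0 (median 1.31, highest 2.17), and below 0 for 3 of 6 Treg markers. Of 10 neutrophil markers 3 and of 9 B cell markers 2 were called above 0. Of 12 myeloid and dendritic cell markers 1 was called above 0 and 1 below. Their part in the differences of the 10 genes was not tested.

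Treg and Teff cells of the same a-CD3-CD28 condition were compared directly. Ccnd3 was 2.20-fold higher in Treg cells (1.14, SE 0.19, adjusted p 0.00369), Cdk4 2.14-fold (1.10, SE 0.24, adjusted p 0.0141) and Cdkn2c 1.71-fold (0.77, SE 0.21, adjusted p 0.035), while Cdkn2a was 2.26-fold higher in Teff cells (-1.17, SE 0.21, adjusted p 0.00552). These were 3 genes higher and 1 lower of 10, where 9.03% of all genes were higher and 2.89% lower. With dim genes left out, 4 of the 10 were higher and 1 lower, where 22% of genes were called, 78.4% of those higher. Ccnd2 differed by 1.02 (adjusted p 0.0519), Cdkn1b by 0.57 and Cdkn1a by 0.54, and all 3 were called without the OX40L-JAG1 Teff arrays, which gave 6 higher and 1 lower against 18.2% and 10.4% of all genes. Ccne1 differed by 0.12 (95% interval -0.42 to 0.67) and Cdkn2d by 0.34. Cdk6 differed by -0.37, which became -0.78 (adjusted p 0.0213) under quantile normalization and -0.80 (adjusted p 0.0124) with the level trend removed. Those scalings ended the calls of Ccnd3 (0.76, adjusted p 0.163, and 0.71, adjusted p 0.123) and Cdkn2c (0.36, adjusted p 0.462, and 0.56, adjusted p 0.0894) but not those of Cdkn2a and Cdk4. Of all genes called here, 75.7% were higher in Treg cells as deposited, 62.0% under quantile normalization and 60.4% without the level trend. None of the 4 calls held in every fit that left out 1 array. Over these fits Ccnd3 ranged from 0.93 to 1.34 and Cdk4 from 1.065 to 1.135. Cdkn2c ranged from 0.74 to 0.80 and Cdkn2a from -1.36 to -0.99.

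Of the lists in this direct comparison, 3 of 13 pocket protein and E2F genes were higher in Treg cells, E2f8 (1.43), Rbl2 (1.07) and Rbl1 (0.89), as were Skp2 (1.07) and Fbxo4 (0.97) of 7 turnover genes, with 0 lower in both lists. Of 11 upstream regulators, Foxo1 (1.61), Stat5a (1.35) and Stat5b (1.21) were higher and Mycn (-0.94) was lower, and of 17 p53 targets Sesn2 (1.10), Zmat3 (0.86) and Perp (0.77) were higher and 0 lower. Of 15 S phase and mitosis genes, 0 were called, and Mki67 differed by 1.03 (adjusted p 0.115). Without the OX40L-JAG1 Teff arrays, 9 of those 15 were higher. Of the 6 other G1 cyclin, CDK and activator genes and the 2 other inhibitors, 0 were called, with Cdk2 at 1.00 (adjusted p 0.0541) and Cdkn2b at -0.71 (adjusted p 0.0742). Foxp3 was 5.47 higher in Treg cells, and 2 of 7 T cell markers were higher and 0 lower. Of 10 neutrophil markers 2 were higher and 0 lower. Lower in Treg cells were 2 of 7 CD8 T and NK cell markers and 2 of 7 basophil and mast cell markers. So were 1 of 9 B cell markers and 1 of 12 myeloid and dendritic cell markers. The part of these markers was not tested.

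**Figure D4:**
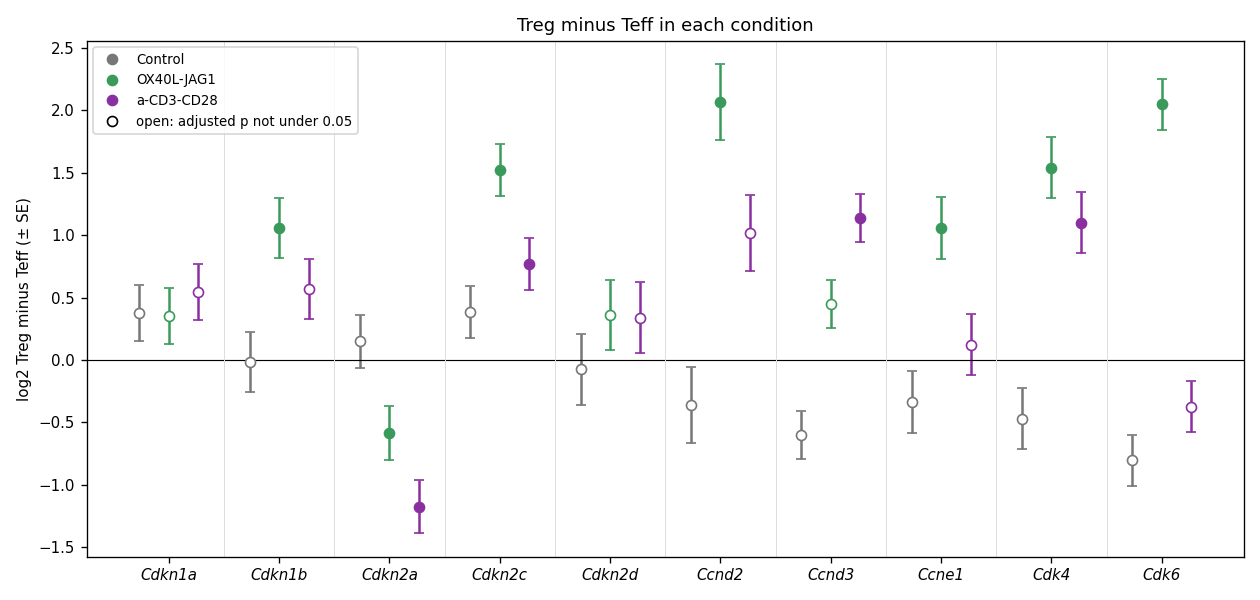
Log2 intensity in Treg minus Teff cells for the 10 genes within the control, OX40L-JAG1 and a-CD3-CD28 conditions, with bars of 1 SE from limma and filled points where the adjusted p was under 0.05. After a-CD3-CD28, Ccnd3 (1.14) and Cdk4 (1.10) lie above 0 and Cdkn2a (-1.17) below, and in the control condition no point is filled.

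In untreated cells, 0 of the 10 genes were called between Treg and Teff cells by limma, where 1.34% of all genes were higher in Treg cells and 2.51% lower. At an unadjusted p under 0.05, 0 were higher and 2 lower, Cdk6 (-0.80, SE 0.20, adjusted p 0.0545) and Ccnd3 (-0.60, SE 0.19, adjusted p 0.122). Both were called lower in Treg cells without the OX40L-JAG1 Teff arrays (adjusted p 0.00505 and 0.0311), where 8.93% of all genes were lower and 5.59% higher. Cdk4 differed by -0.47 and Ccnd2 by -0.36, while Cdkn2c differed by 0.39, Cdkn1a by 0.37 and Cdkn1b by -0.01 (95% interval -0.54 to 0.51). The median of the 10 genes was -0.21 against 0.02 over all genes. In the lists, Foxo1 (-0.94) and Cdc25a (-1.12) were lower in Control Treg, Plk2 (1.87) and Pmaip1 (1.07) of 17 p53 targets were higher, and 0 of 15 S phase and mitosis genes were called, with Cdt1 at -0.66 and Mki67 at 0.33. Foxp3 was 4.70 higher in Control Treg. Marker sums of other cells were lower in Control Treg than in Control Teff. Of 9 B cell markers 4 were called lower. Neutrophil markers summed to 214.8 to 233.8 against 448.9 to 449.8 (3 of 10 lower, 1 higher), basophil and mast cell markers to 105.9 to 118.1 against 225.4 to 238.2 (1 of 7 lower), and CD8 T and NK cell markers to 290.7 to 330.7 against 519.7 to 528.3 (1 of 7 lower). Of 7 T cell markers 2 were called lower. The part of these markers in the differences of the 10 genes was not tested. Of all genes called here, 34.8% were higher in Treg cells as deposited, 49.1% under quantile normalization and 55.3% without the level trend.

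In Treg cells after OX40L-JAG1, 2 inhibitor genes rose, Cdkn1a 2.14-fold (1.10, SE 0.22, adjusted p 0.0352) and Cdkn2c 2.09-fold (1.06, SE 0.21, adjusted p 0.0291). No other gene of the 10 was called and 0 fell, where 0.996% of all genes rose and 0.559% fell. Cdk6 differed by 0.68 (adjusted p 0.18), and was called without the OX40L-JAG1 Teff arrays (adjusted p 0.0238), when 3 of 10 rose and 0 fell against 3.40% and 2.01% of all genes. No cyclin was called, with Ccnd2 at -0.02 (95% interval -0.69 to 0.65), Ccnd3 at -0.03 (-0.45 to 0.39) and Ccne1 at 0.18 (-0.37 to 0.72). Cdkn1b differed by 0.54, Cdk4 by 0.34, Cdkn2a by 0.26 and Cdkn2d by -0.23. Both calls were lost under quantile normalization, with Cdkn1a at 1.06 (adjusted p 0.0531) and Cdkn2c at 0.96 (adjusted p 0.0834). Neither call held in most fits that left out 1 array. Some of these fits left out an array of a group not compared here, which enters only the shared error. The differences of the 2 genes themselves stayed between 0.92 and 1.28 for Cdkn1a and between 0.80 and 1.32 for Cdkn2c over these fits. Of 15 S phase and mitosis genes 0 were called (median -0.13), with Top2a at 0.80 (adjusted p 0.128), Mki67 at 0.63 and Foxp3 at 0.41. Klf6 (-1.07) of 11 upstream regulators and Btg2 (-1.05) of 17 p53 targets fell, and of 13 pocket protein and E2F genes, 6 other G1 genes, 2 other inhibitors and 7 turnover genes 0 were called, with E2f2 at 0.73, Ccnd1 at 0.59, Cdkn1c at -0.08 and Skp2 at 0.52. The neutrophil, myeloid, basophil, and erythroid and platelet marker sums given above were higher in OX40L-JAG1 Treg than in Control Treg, with Ppbp at 4.16 and Pf4 at 3.08, and their part in these differences was not tested.

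The cultured Treg groups were also compared with each other. Cdkn1a was 6.00-fold higher after a-CD3-CD28 than after OX40L-JAG1 (2.58, SE 0.22, adjusted p 6.61e-05), Ccnd3 3.00-fold (1.58, SE 0.19, adjusted p 0.00048) and Ccne1 2.88-fold (1.52, SE 0.25, adjusted p 0.00315). These were 3 of 10 genes higher and 0 lower, where 4.73% of all genes were higher and 1.18% lower. Cdkn2d differed by 1.02 (adjusted p 0.0612), Ccnd2 by 0.71, Cdkn2c by 0.66, Cdk6 by 0.62 and Cdk4 by 0.57. These 5 were called without the OX40L-JAG1 Teff arrays. That fit gave 8 of 10 higher and 0 lower against 9.89% and 4.01% of all genes. Cdkn2d was also called under quantile normalization (0.75, adjusted p 0.049) and with the level trend removed (0.82, adjusted p 0.0134). Cdkn1b differed by -0.12 (95% interval -0.65 to 0.41) and Cdkn2a by 0.12. Mki67 was higher after a-CD3-CD28 (1.67, adjusted p 0.028), and Foxp3 differed by 0.34 (adjusted p 0.526). Of all genes called here, 80.1% were higher as deposited, 66.2% under quantile normalization and 68.0% without the level trend.

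In OX40L-JAG1 Teff cells, all 3 cyclins and both kinases were lower than in Control Teff. The differences were -2.45 for Ccnd2 (SE 0.30, adjusted p 0.000133), -2.17 for Cdk6 (SE 0.20), -1.67 for Cdk4 (SE 0.24), -1.21 for Ccne1 (SE 0.25) and -1.08 for Ccnd3 (SE 0.19). Cdkn1a (1.12, SE 0.22, adjusted p 0.00226) and Cdkn2a (1.00, SE 0.21, adjusted p 0.00328) were higher, while Cdkn1b (-0.54), Cdkn2d (-0.67) and Cdkn2c (-0.07, 95% interval -0.53 to 0.38) were not called. These were 2 higher and 5 lower of 10, where 20.0% of all genes were higher and 26.9% lower, and all genes had a median of 0.18. With dim genes left out, the 10 genes again had 2 higher and 5 lower. The 13903 genes of that fit had a median of -0.457, and 59.1% were called, 25.7% of those higher. As these arrays had the narrow spread, the lower T cell marker sum and the higher sums of other cells' markers given above, the values were rescaled. Cdkn1a, Cdkn2a, Ccnd2 and Cdk6 kept direction and call under both scalings. Their values were 1.37, 1.30, -1.42 and -1.42 under quantile normalization, and 1.89, 1.05, -1.23 and -0.95 with the level trend removed. With array weights, which give these arrays the least weight, the calls of Cdkn1a (adjusted p 0.0553), Cdkn2a (adjusted p 0.0828) and Ccne1 (adjusted p 0.0551) ended, which left 0 higher and 4 lower. Ccne1 was called under quantile normalization (-1.45) and not with the trend removed (-0.74, adjusted p 0.0633), and Cdk4 likewise (-0.63, then -0.41 with adjusted p 0.116). Ccnd3 was near 0 under quantile normalization (-0.01) and above 0 with the trend removed (0.15, adjusted p 0.719). Cdkn1b turned to a call above 0, at 0.52 (adjusted p 0.0343) and 0.74 (adjusted p 0.0076), and so did Cdkn2d with the trend removed, at 0.55 (adjusted p 0.0469). Without OX40L-JAG1 Teff replicate 1, 9 genes were called, Cdkn1b (-0.93) and Cdkn2d (-1.21) included, and without any other array 7. Mki67 differed by -1.47 (adjusted p 0.0108) as deposited. Of 6 Treg markers 4 were higher, Foxp3 among them (0.92). The part of the markers in these differences was not tested.

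**Figure D5:**
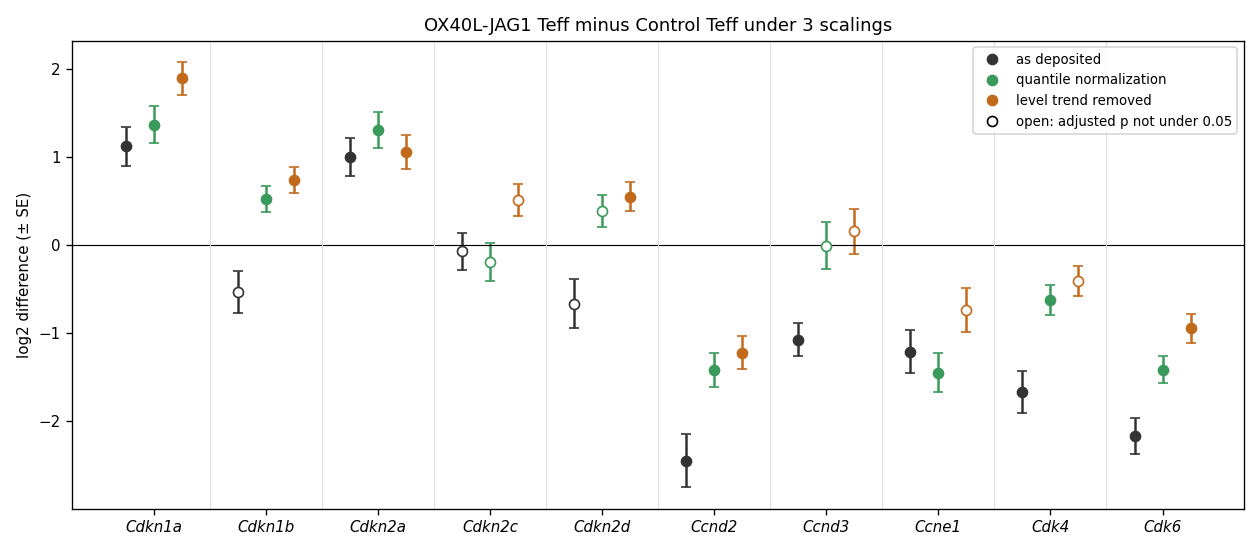
Log2 difference of OX40L-JAG1 Teff from Control Teff for the 10 genes under 3 scalings (as deposited, quantile normalized, level trend removed), with bars of 1 SE from limma and filled points where the adjusted p was under 0.05. Ccnd2 and Cdk6 lie below 0 and Cdkn1a and Cdkn2a above 0 in all 3, while Cdkn1b moves from -0.54 to 0.52 and 0.74.

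The other comparisons that need these arrays were read with the same rescaling. The median over all genes was -0.14 for OX40L-JAG1 Treg against Teff and -0.17 for the interaction, and either rescaling brought it close to 0. With dim genes left out, these medians were 0.411 and 0.498. In that fit 53.8% and 45.3% of genes were called, and 75.7% and 79.8% of those were higher. For a-CD3-CD28 Teff against OX40L-JAG1 Teff the same fit gave a median of 0.295, with 41% called, 79.2% of those higher. Against OX40L-JAG1 Teff, a-CD3-CD28 Teff had 9 of 10 genes higher and 0 lower, where 18.9% of all genes were higher and 9.15% lower. The largest difference was that of Cdk6 (3.04, SE 0.20), followed by Ccne1 (2.45, SE 0.25) and Cdkn1a (2.39, SE 0.22). Under quantile normalization 5 were called, Ccne1 (2.77), Cdk6 (2.48), Cdkn1a (2.05), Cdkn2c (1.57) and Ccnd2 (0.84), and 6 of 10 were called without a-CD3-CD28 Teff replicate B. Of all genes called, 67.4% were higher as deposited, 55.0% under quantile normalization and 51.2% without the level trend. OX40L-JAG1 Treg cells had 6 genes higher and 1 lower than OX40L-JAG1 Teff cells, where 24.6% and 16.5% of all genes were. Ccnd2 (2.07, SE 0.30), Cdk6 (2.05, SE 0.20) and Cdkn2c (1.52, SE 0.21) were called in all 3 scalings, at 1.04, 1.33 and 1.54 under quantile normalization and 0.86, 0.90 and 1.04 with the trend removed. Cdk4 (1.54) was 0.52 (adjusted p 0.0623) and 0.35 in these, and Ccne1 (1.05) was 1.34 and 0.68, the latter not called. Cdkn1b (1.06) was 0.01 and -0.17, Ccnd3 (0.45, adjusted p 0.081) was -0.56 and -0.71, neither called, and Cdkn2d (0.36, not called) was -0.62 and -0.78, both called. The gene called lower was Cdkn2a (-0.59, adjusted p 0.0468), which was not called with the trend removed (-0.60, adjusted p 0.0697) and in only 3 of the 12 fits that left out 1 array. The response to OX40L-JAG1 in Treg minus that in Teff cells was above 0 for 7 of 10 genes and below 0 for none, where 21.3% of all genes were above and 10.2% below. It was 2.85 for Cdk6 (SE 0.29), 2.43 for Ccnd2 (SE 0.43) and 2.01 for Cdk4 (SE 0.34), and the first 2 of these were called in all 3 scalings (1.96 and 1.36 under quantile normalization, 1.51 and 1.09 with the trend removed). Of all genes with this interaction called, 67.5% were above 0 as deposited and 50.0% with the trend removed. The count of 7 became 3 without Control Teff replicate B. In these 3 comparisons, in the order given, Mki67 differed by 3.07, 2.44 and 2.10, and Foxp3 by -0.93, 4.20 and -0.50, the last not called.

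The genes whose level followed each of the 10 most closely were taken as the 3 with the highest Pearson correlation over the 12 arrays among 10575 candidates. These correlations describe arrays that share groups and processing, and they carry no test. Cdkn1a went with Slc16a3 (r = 0.9975), which encodes a lactate exporter, Bnip3 (0.991), a mitophagy gene induced by hypoxia, and Pmvk (0.9901), of the mevalonate pathway, and over the 10 arrays outside OX40L-JAG1 Teff the values were 0.9975, 0.9915 and 0.9914. Cdkn2d went with 2 genes of DNA replication, Mcm7 (0.9905) and the primase gene Prim1 (0.9732), and with Fez2 (0.9856). Ccnd3 went with Chaf1b (0.9613), which encodes a subunit of chromatin assembly factor, Elovl6 (0.9603) and Ckb (0.9569). Cdkn2c went with Fdft1 (0.9805), of sterol synthesis, Vim (0.9753), which encodes vimentin, and Grhpr (0.9719). Cdk4 went with Cdan1 (0.994), Rac1 (0.9859) and Cux1 (0.9844), Cdk6 with Pank3 (0.9762), Psmd3 (0.9732) and Magt1 (0.9722), and Ccne1 with Rpia (0.976), Cep170b (0.973) and Rfwd3 (0.9713). Ccnd2 went with Ctdspl2 (0.9917), Wdr33 (0.991) and the splicing factor gene Sf3b1 (0.9906), whose values fell to between 0.9406 and 0.9441 over the 10 arrays. Cdkn1b went with Cpne3 (0.9788), Cep162 (0.9694) and Flad1 (0.9603), and Cdkn2a with Cetn4 (0.944), Tnfsf13b (0.9342) and the agouti gene. Within the 10 genes, Ccnd2 and Cdk4 correlated with r = 0.96 over 12 arrays and 0.874 over the 10, and Cdkn1a and Ccne1 with 0.785 and 0.906.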

How the data were processed

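Total RNA of sorted CD4+ T cells was measured on 12 single-colour Affymetrix arrays. The deposited values are log2 intensities that the authors made with RMA, per the submitters' processing notes. The RMA version and the build of the array annotation are not given in the sources used here. Values were used as deposited. Of 41345 rows, 23521 had exactly 1 gene symbol. The 1814 rows with several and 16010 with none were left out, and 23328 rows were matched by Entrez identifier to a RefSeq gene table, whose symbols were used. Where a gene had more than 1 row (1082 genes), the row brightest on average over all 12 arrays stood for it, which left 22180 genes. For 2 arrays in each of 6 groups, limma 3.58.1 in R 4.3.3 fitted 1 mean per group over all 12 arrays (6 residual degrees of freedom) with eBayes. It gave 9 comparisons and 2 interactions. Adjusted p-values are two-sided Benjamini-Hochberg values over all genes of a comparison, and a gene was called under 0.05. Differences are log2 with their standard error (SE). The procedure was tested on simulated data in which each gene had the same spread in every group. That does not cover the wider replicate spread of the OX40L-JAG1 Teff arrays.

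The 10 genes, the gene lists and the alternatives were chosen with earlier results of these data known. Genes named from a list are up to 4 called members with the largest change, or the member with the largest change where none was called, with Mki67 and Foxp3 throughout. Listed genes without a row were not analysed here. Similar genes leave out predicted, clone-named and small RNA genes and receptor segments, and genes whose mean is under the lowest array median of 4.87. The alternatives were the replicate label as a block, the OX40L-JAG1 Teff arrays left out, quantile normalization over the tested genes, the trend of each array against the mean level removed by loess, dim genes left out, eBayes with trend and robust, array weights, the mean of a gene's rows, and each array left out in turn, where a group left with 1 array is assumed to vary like the others. For a comparison that does not use that group, leaving out 1 of its arrays gives the same result as leaving out both. An array gives no read depth. The number of arrays and the spread between replicates limit the precision.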

Additional observations from a re-analysis of the deposited data

Results flagged for a closer look

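For 10 values the response to a treatment differed between Treg and Teff cells by the interaction test in limma, which is why they are listed. After OX40L-JAG1, the Treg response minus the Teff response was 1.08 for Cdkn1b, 1.14 for Cdkn2c, 2.43 for Ccnd2, 1.05 for Ccnd3, 1.39 for Ccne1, 2.01 for Cdk4 and 2.85 for Cdk6. After a-CD3-CD28, it was -1.32 for Cdkn2a, 1.74 for Ccnd3 and 1.57 for Cdk4. The first 7 values rest on the OX40L-JAG1 Teff arrays, whose narrow spread and marker sums are given in the report. Groups of 2 arrays are too small for a test of single outlying samples.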

How the results depend on the processing

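Over 110 differences of the 10 genes and 8 alternatives other than leaving out single arrays, 840 values were recomputed: 741 kept their direction and their side of the threshold, counting 28 that changed sign while never called, 41 lost the call, 44 gained it and 14 turned direction. All 14 turns involve the OX40L-JAG1 Teff arrays under a rescaling. Under quantile normalization these were Cdkn1b (0.52) against Control Teff, Cdkn2d (-0.62) for OX40L-JAG1 Treg against Teff, and Cdkn1b (-0.095) and Ccnd3 (-0.12) in the OX40L-JAG1 interaction. With the level trend removed they were Cdkn1b (0.74), Cdkn2d (0.55) and Ccnd3 (0.15) against Control Teff, Cdkn1b (-0.58) and Ccnd3 (-0.028) for a-CD3-CD28 Teff against OX40L-JAG1 Teff, Cdkn1b (-0.17) and Cdkn2d (-0.78) for OX40L-JAG1 Treg against Teff, and Cdkn1b (-0.34), Cdkn2d (-0.90) and Ccnd3 (-0.31) in the OX40L-JAG1 interaction. The cause was not tested.

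Counts of called genes moved by over 1.5 times as follows. Without the OX40L-JAG1 Teff arrays, they were 2 for Control Treg against Control Teff, 8 for a-CD3-CD28 Treg against OX40L-JAG1 Treg and 7 for a-CD3-CD28 Treg against Teff, with a median SE over all genes of 0.179 in place of 0.241. Quantile normalization gave 0 for OX40L-JAG1 Treg against Control Treg, 5 for a-CD3-CD28 Teff against OX40L-JAG1 Teff and 4 for the OX40L-JAG1 interaction. With the level trend removed, OX40L-JAG1 Treg against Teff had 4 and the OX40L-JAG1 interaction 3. With dim genes left out, Control Treg against Control Teff had 1. Array weights (0.1685 for the OX40L-JAG1 Teff arrays, 0.9108 to 2.343 for the others) gave 3 for Control Treg against Control Teff, 8 for a-CD3-CD28 Treg against OX40L-JAG1 Treg, 4 for OX40L-JAG1 Teff against Control Teff, 5 for a-CD3-CD28 Teff against OX40L-JAG1 Teff and 4 for the OX40L-JAG1 interaction. Leaving out 1 array at a time, whether or not a count moved that far, gave 0 to 2 for Control Treg against Teff, 0 to 3 for OX40L-JAG1 Treg against Control Treg, 5 to 8 for a-CD3-CD28 Treg against Control Treg, 3 to 8 for a-CD3-CD28 Treg against OX40L-JAG1 Treg, 7 to 9 for OX40L-JAG1 Teff against Control Teff, 3 to 7 for a-CD3-CD28 Teff against Control Teff, 6 to 10 for a-CD3-CD28 Teff against OX40L-JAG1 Teff, 5 to 8 for OX40L-JAG1 Treg against Teff, 0 to 7 for a-CD3-CD28 Treg against Teff, 3 to 8 for the OX40L-JAG1 interaction and 1 to 4 for the a-CD3-CD28 interaction.

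The labels do not say whether samples with the same replicate label in different groups are paired. Of 15 correlations of replicate deviations between groups, from -0.0693 to 0.182, 2 were over 0.1. The highest was between OX40L-JAG1 Teff and OX40L-JAG1 Treg. Such correlations cannot show whether samples shared a mouse or culture, so pairing stays unknown. With the replicate block, the count for OX40L-JAG1 Treg against Teff went from 7 to 6, as Cdkn2a was no longer called (-0.59, adjusted p 0.0522), and no other call among the 10 genes changed.

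With 2 arrays per group, smaller differences than those called can be missed. Levels under the lowest array median, as for Cdkn1a in Control Teff and Ccne1 in OX40L-JAG1 Teff, make the matching differences low estimates.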
